A study of Arabidopsis thaliana with 2 samples.

Results

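Genes of arabinogalactan proteins (AGPs) and fasciclin-like arabinogalactan proteins (FLAs) were described in 2 RNA-seq libraries of whole Arabidopsis thaliana seedlings. Both libraries came from the Col ecotype: 1 from wild type, and 1 from the line 35S-ARF18-OE-2, in which ARF18, an auxin response factor, is overexpressed; they are called Col and OE here. The line name points to 35S, a promoter active in most plant tissues. It is a single line, and the number of plants pooled per library is not given in the sources used here. Seedlings of both genotypes spent 4 days in the dark on 1/2 MS medium and then 7 days in white light, although another label gives their age as 7 days. The gene family was taken as all nuclear transcript models whose protein database hit in the deposited table names arabinogalactan, whatever their expression. This gave 42 transcript models of 38 loci, out of 21682 nuclear loci with a row. Values were summed per locus over the matching models.

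AGPs are cell surface and wall proteins in which proline residues are hydroxylated and carry large arabinose- and galactose-rich sugar chains. Most are made with a signal peptide, a stretch rich in Pro, Ala, Ser and Thr, and a tail that is replaced by a glycosylphosphatidylinositol (GPI) anchor holding the protein at the plasma membrane. Classical AGPs consist of little else, lysine-rich AGPs have a short basic stretch inside it, and AG peptides are very short versions. FLAs carry fasciclin domains, known for cell adhesion in animals, beside AGP-like stretches. AGPs and FLAs are known from root growth, pollen, wood formation and the wall of expanding cells.

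The family held 6 AG peptides, 9 classical or lysine-rich AGPs and 20 FLAs, of which 17 are numbered. The other 3 loci were AGP30 and AGP31, which join an AGP-like or proline-rich stretch to a cysteine-containing domain, and AT2G35859. This last locus is annotated as a non-coding natural antisense transcript of FLA16, overlapping its gene by 1338 bases, and its database hit is FLA16.

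The coding sequences of the members that the results turn on are shown from the start codon, to make the difference between the classes visible. Codons with C in the second position are in capitals. They are all the codons of Pro, Ala and Thr and most of those of Ser (RefSeq, TAIR10.1, coding strand). Whole coding sequences are given for 3 AG peptides, and the start of the coding sequence for the lower AGP31 and AGP19 and for FLA9 and FLA13, which have coding sequences of equal length and opposite signs of their ratios.
AGP14: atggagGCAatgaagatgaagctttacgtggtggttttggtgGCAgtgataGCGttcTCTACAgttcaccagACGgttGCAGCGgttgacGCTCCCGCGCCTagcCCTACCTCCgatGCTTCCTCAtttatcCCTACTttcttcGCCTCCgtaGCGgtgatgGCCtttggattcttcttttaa
AGP22: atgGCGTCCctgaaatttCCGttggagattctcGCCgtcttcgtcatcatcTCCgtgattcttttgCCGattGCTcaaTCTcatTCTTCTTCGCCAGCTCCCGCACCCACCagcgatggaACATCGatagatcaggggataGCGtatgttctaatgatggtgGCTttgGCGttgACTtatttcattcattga
AGP12: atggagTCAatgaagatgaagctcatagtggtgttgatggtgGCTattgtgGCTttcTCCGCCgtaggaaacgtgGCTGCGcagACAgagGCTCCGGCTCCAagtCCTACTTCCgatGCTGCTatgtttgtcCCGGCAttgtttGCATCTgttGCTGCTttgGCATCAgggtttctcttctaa
AGP31, bases 1 to 300 of 1080: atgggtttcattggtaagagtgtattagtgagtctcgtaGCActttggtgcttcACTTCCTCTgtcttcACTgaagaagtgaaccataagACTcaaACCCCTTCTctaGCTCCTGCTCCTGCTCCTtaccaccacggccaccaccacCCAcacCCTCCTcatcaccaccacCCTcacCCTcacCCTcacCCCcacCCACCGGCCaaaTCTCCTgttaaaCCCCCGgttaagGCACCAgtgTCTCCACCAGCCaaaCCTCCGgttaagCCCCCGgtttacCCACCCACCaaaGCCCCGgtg
AGP19, bases 1 to 300 of 747: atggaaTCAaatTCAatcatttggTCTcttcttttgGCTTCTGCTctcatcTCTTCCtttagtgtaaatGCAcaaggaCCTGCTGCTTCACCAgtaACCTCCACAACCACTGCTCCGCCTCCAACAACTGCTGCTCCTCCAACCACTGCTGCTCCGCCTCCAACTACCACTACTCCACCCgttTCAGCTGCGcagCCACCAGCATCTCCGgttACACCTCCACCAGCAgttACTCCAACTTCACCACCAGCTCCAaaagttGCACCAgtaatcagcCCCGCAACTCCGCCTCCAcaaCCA
FLA9, bases 1 to 150 of 744: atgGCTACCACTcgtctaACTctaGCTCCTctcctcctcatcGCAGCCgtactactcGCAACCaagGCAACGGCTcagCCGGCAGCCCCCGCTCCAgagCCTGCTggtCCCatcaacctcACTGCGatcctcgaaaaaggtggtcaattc
FLA13, bases 1 to 150 of 744: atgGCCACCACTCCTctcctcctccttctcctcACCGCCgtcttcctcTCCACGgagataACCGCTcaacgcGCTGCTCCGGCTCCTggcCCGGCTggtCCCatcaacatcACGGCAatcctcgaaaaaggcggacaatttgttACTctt
In AGP14, 24 of 61 codons are in capitals, and in AGP22 23 of 64, spread from near the start codon to near the end. In AGP19, 72 of the 100 codons shown are in capitals, in near-continuous runs. In AGP31, 44 of 100 are, broken by the runs of cac and cat codons of its histidine-rich stretch.

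Over all 27444 nuclear coding genes, the median share of such codons was 22.3%, and only 52 genes were above 50%. Of the 37 coding members, 8 were above 50%, namely AGP1, AGP2, AGP5, AGP9, AGP10, AGP11, AGP17 and AGP19. Above 40% were 13 members, against 0.758% of all nuclear coding genes. The highest was AGP9 with 68.2%, followed by AGP19 with 65.9%. Expressed AG peptides had 35.9% to 41.3%, and expressed FLAs 20.5% to 40.6%. In the deposited table, 9 of 38 members (23.7%) carried the component term for anchoring to a membrane, against 0.475% of all nuclear loci. The term cell wall was carried by 5 (13.2%), against 1.62%, and 11 (28.9%) had no component term, against 38.2%.

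Counted reads came to 7059226 in Col and 6824188 in OE. Each genotype had 1 library, so that genotypes could not be tested against each other and every difference describes these 2 libraries. Intervals are 95% exact conditional binomial intervals of the count ratio and cover counting error only. ARF18 itself had 97 counts in Col and 472 in OE, a count ratio of 5.03 (4.04 to 6.33). Levels are given as RPKM, reads scaled by transcript length and by the counted reads of the library. Log2 ratios set OE over Col after adding 1 to each RPKM, a scale that understates the differences of low genes. Loci with a mean RPKM of 1 or more are called expressed, 15083 in all, with a median log2 ratio of 0.03. Across them the log2 ratio fell with transcript length, from a median of 0.34 in the shortest of 10 equal groups (up to 676 bases) to -0.31 in the longest (2610 bases or more). Because AG peptides are short and many FLAs are long, values adjusted for length and GC content are given beside the unadjusted ones. In bulk seedlings, fewer cells of a type and less RNA per cell cannot be told apart.

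Of the 38 members, 33 were expressed, 15 with a log2 ratio above 0 and 18 below, against 53.8% and 46.2% of all expressed genes. Among the members, 5 were among the 500 nuclear genes with the highest mean RPKM, namely FLA2, FLA8, FLA9, FLA13 and AGP10. Together the members took 31185 counts in Col, 0.442% of the library (95% exact binomial interval 0.437 to 0.447), and 26791 in OE, 0.393% (0.388 to 0.397). The ratio of these sums was 0.889 (0.874 to 0.903). The classes differed: the AG peptides summed to 1586 and 2470 counts, a ratio of 1.61 (1.51 to 1.72). The FLAs summed to 23233 and 19070, a ratio of 0.849 (0.833 to 0.866), and the classical and lysine-rich AGPs to 3657 and 3863, a ratio of 1.09 (1.04 to 1.14). AGP30, AGP31 and AT2G35859 summed to 2709 and 1388 counts. Outside the definition, 13 further annotated family loci with a row, described below, summed to 9600 and 10490 counts. Their ratio was 1.13 (1.1 to 1.16), opposite in direction to that of the members, so the size of the lower sum depends on the definition.

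**Figure D1:**
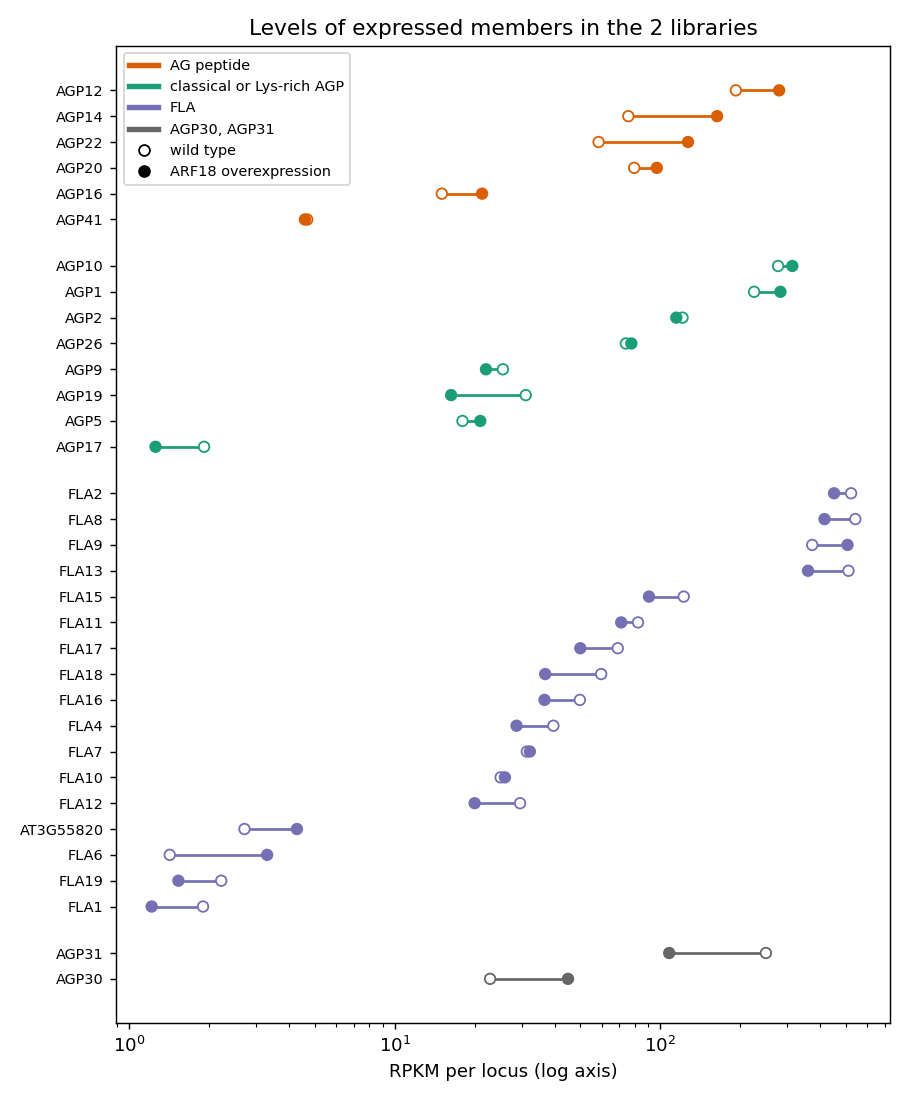
RPKM per locus (log axis) of the 33 expressed members in Col (open points) and OE (filled points), grouped and coloured by class and sorted by mean level. The AG peptides except AGP41 lie to the right in OE, most FLAs to the left, and AGP31 shows the widest step down.

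At least 2-fold higher in the overexpression library were 2 of the 33 expressed members, AGP14 and AGP22, against 1.25% of all expressed nuclear genes. At least 2-fold lower was 1 member, AGP31, against 0.663%. Counting intervals lay above 1 for 9 members and below 1 for 12, against 18.7% and 15.6% of all expressed genes. Such intervals narrow with the number of reads, so these shares depend on level. Of the 11 members whose mean RPKM reached 100, 5 had intervals above 1 and 5 below, against 59.9% and 21.0% of all expressed genes at that level. The median log2 ratio of the expressed members was -0.08, and it was -0.31 adjusted for length and GC content, where the median of all expressed genes is 0 by construction. After adjustment 11 members were above 0 and 22 below, against 49.9% and 49.9% of all expressed genes. None was then 2-fold higher, against 0.524%, and 2 were 2-fold lower, AGP19 and AGP31, against 0.869%.

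AG peptides were higher in the overexpression library. Of the 6, all expressed, 5 had counting intervals above 1 and none below, against 18.7% and 15.6% of all expressed genes. Where the mean RPKM reached 100, these shares were 59.9% and 21.0%. The median of the 6 mean RPKM values was 90.5, and AGP12 and AGP14 were above 100. The median log2 ratio was 0.51, against 0.34 for all expressed genes of the shortest length group, and it was 0.18 adjusted for length and GC content. Their transcripts had a length of 492 to 590 bases in the deposited table, within the shortest of the 10 length groups. The RefSeq transcripts of AGP12, AGP16, AGP20, AGP22 and AGP41 are longer, at 733 to 944 bases, past that group's limit of 676. The adjustment used the deposited length.

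AGP14, an AG peptide known from root hair growth, had 263 counts in Col and 549 in OE, or an RPKM of 75.7 and 164. The count ratio was 2.16 (1.86 to 2.51) and the log2 ratio 1.1, or 0.70 adjusted. The gene has 1 exon on chromosome 5 (plus strand, 22893151 to 22893651, TAIR10.1). AGP22, on the same chromosome and strand (21603569 to 21604414, 2 exons), had 211 and 443 counts, or an RPKM of 58.5 and 127. Its count ratio was 2.17 (1.84 to 2.57) and its log2 ratio 1.11, or 0.73 adjusted. Both were more than 2-fold higher by count. Their adjusted ratios stood at percentiles 98.2 and 98.4 of all expressed genes. In the authors' deposited table, AGP14 had a log2 ratio of 1.11 at an FDR of 1.97e-24 and AGP22 one of 1.12 at an FDR of 5.74e-20, from a test that compares the reads of these 2 libraries and not the genotypes.

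The remaining AG peptides moved less. AGP12, the most abundant of them, had an RPKM of 192 in Col and 280.0 in OE (701 and 986 counts), a ratio of 1.46 (1.32 to 1.61). Its log2 ratio was 0.54, or 0.14 adjusted. AGP16 had 63 and 87 counts, a ratio of 1.43 (1.02 to 2.01), and AGP20 329 and 387 counts, a ratio of 1.22 (1.05 to 1.41). Their adjusted log2 ratios were 0.22 and 0.00054, so AGP20 stood at the level of genes of its length. AGP41 had 19 and 18 counts, and its interval, 0.485 to 1.97, included 1. The AGP16 gene overlaps AT2G46320 on the opposite strand by 228 bases, and AT2G46320 had 4 and 2 counts.

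Further loci named as arabinogalactan or fasciclin-like proteins in the reference annotation fall outside the family as defined here. There were 18, of which 13 had a row in the table, 10 of these with a blank database hit, and the other 5 were not analysed here. The 13 with a row included the AG peptides AGP13, AGP15, AGP21, AGP24 and AGP40. AGP13 had 172 counts in Col and 345 in OE, a ratio of 2.07 (1.72 to 2.51), with a log2 ratio of 1.04, or 0.75 adjusted. AGP24 had 535 and 899 counts, a ratio of 1.74 (1.56 to 1.94), or 0.44 adjusted on the log2 scale. AGP15, with the highest level of all the AG peptides at an RPKM of 659 and 833, had a ratio of 1.26 (1.2 to 1.33) and an adjusted log2 ratio of 0.0024. AGP21 had a ratio of 1.35 (1.21 to 1.52), or 0.09 adjusted, and AGP40, known from pollen, had 1 count and 0. Over the AG peptides inside and outside the definition, 10 of 11 were expressed. The interval lay above 1 for 9 of these 10, and that of AGP41 included 1. Among all expressed genes, it lay above 1 for 18.7% and below 1 for 15.6%. These shares were 59.9% and 21.0% where the mean RPKM reached 100, and the 10 AG peptides had a median mean RPKM of 110. Their median log2 ratio was 0.51, against 0.34 for all expressed genes of the shortest length group, and it was 0.18 adjusted.

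**Figure D2:**
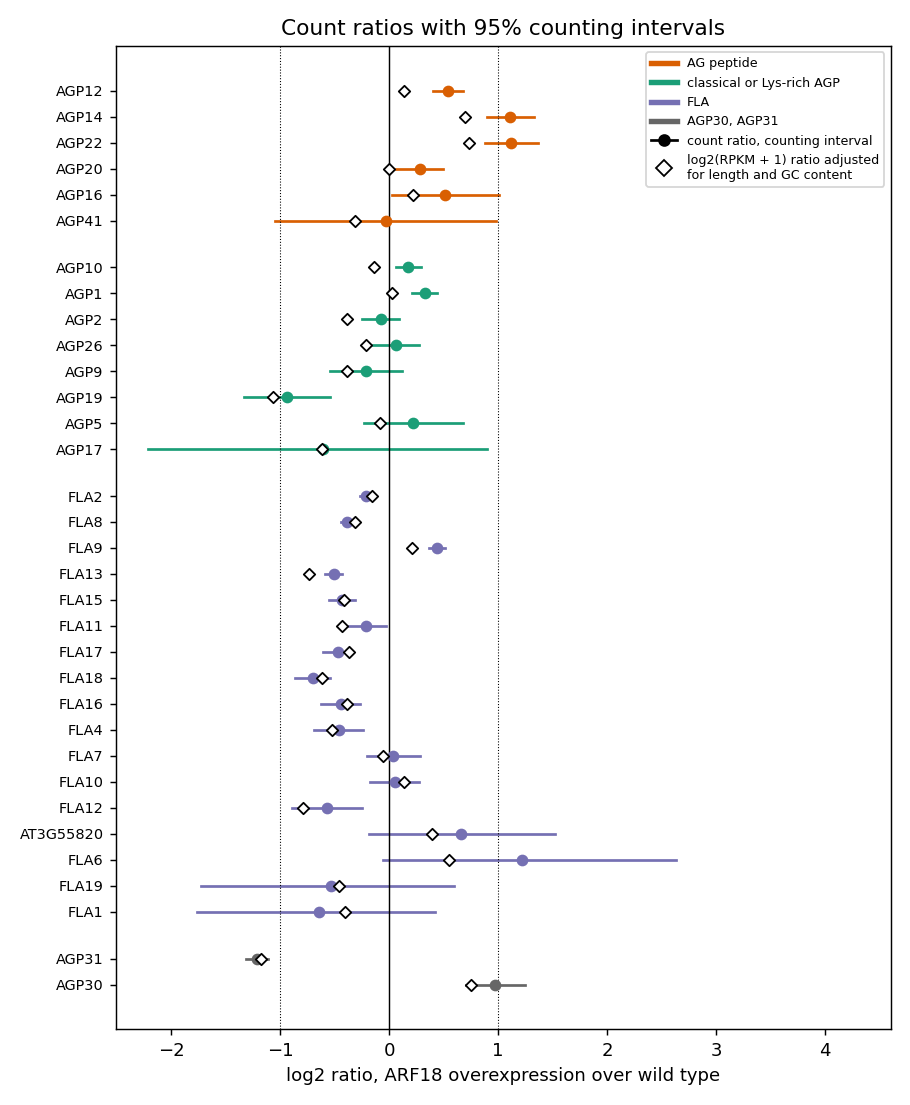
Log2 count ratio (points) with its 95% counting interval (lines) for the 33 expressed members, and the log2 ratio of RPKM + 1 adjusted for transcript length and GC content (diamonds). Dotted lines mark 2-fold. AGP14, AGP22 and AGP30 lie furthest to the right among members with narrow intervals, AGP31 and AGP19 furthest to the left, and for short transcripts the diamonds lie left of the points.

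Most classical and lysine-rich AGPs had counting intervals that included 1. Of the 9 loci, 8 were expressed, of which 2 had intervals above 1, 1 had one below and 5 included 1, shares near the 18.7% above and 15.6% below of all expressed genes. The median log2 ratio was -0.0048. Adjusted for length and GC content it was -0.30, with 7 of 8 below 0.

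AGP19, a lysine-rich AGP known for roles in cell division and expansion, was the lowest of the class. It had 164 counts in Col and 83 in OE, or an RPKM of 31.1 and 16.3. The count ratio was 0.524 (0.397 to 0.686), and the log2 ratio -0.89, or -1.06 adjusted. Its gene is on chromosome 1 (plus strand, 25809298 to 25810130, 2 exons), and AT1G68723 on the opposite strand, not analysed here, overlaps it by 514 bases. Without strand information, which is not given in the sources used here, reads of both cannot be told apart. The lysine-rich AGP17, known from Agrobacterium binding to roots, had 11 and 7 counts and an interval of 0.216 to 1.86. AGP18, the other lysine-rich AGP, lies outside the definition and had a ratio of 1.08 (0.986 to 1.17).

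AGP10 and AGP1, both classical AGPs, had the highest levels of the class. AGP10 had an RPKM of 277 in Col and 314 in OE, a count ratio of 1.13 (1.04 to 1.23), and a log2 ratio of 0.18 that turned to -0.14 adjusted. AGP1 had an RPKM of 225 and 283, a count ratio of 1.26 (1.16 to 1.36) and a log2 ratio of 0.33, or 0.02 adjusted. Both were higher by count. By adjusted ratio, AGP1 stood at percentile 54.1 of all expressed genes, close to the median, and AGP10 at percentile 30.4. AGP2 (584 and 535 counts), AGP26 (370 and 375), AGP9 (169 and 141) and AGP5 (78 and 88) had intervals that included 1. Their adjusted log2 ratios lay between -0.39 and -0.09. AGP11, known from pollen tubes, had 1 and 3 counts and was below the threshold. Genes on the opposite strand overlap AGP26 by 432 and AGP10 by 337 bases.

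Outside the definition, AGP4 had 2079 counts in Col and 1971 in OE, with a ratio of 0.981 (0.922 to 1.04). AGP7 had 1632 and 1163 counts, a ratio of 0.737 (0.683 to 0.795), while AGP3 had 252 and 347, a ratio of 1.42 (1.21 to 1.68). AGP25 and AGP27 had intervals that included 1, as did AGP6, known from pollen, with 15 and 9 counts. APAP1, an AGP linked to xylan and pectin, had 240 and 330 counts, a ratio of 1.42 (1.2 to 1.69).

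On the log2 scale of RPKM + 1, AGP31 had the largest difference of the 33 expressed members. It joins a histidine-rich and a proline-rich stretch to a cysteine-containing domain and is known to bind pectin. AGP31 had 2529 counts in Col and 1057 in OE, or an RPKM of 249.7 and 108. The count ratio was 0.432 (0.402 to 0.465), or 2.31-fold lower, and the log2 ratio was -1.20, or -1.18 adjusted. Of its matching models, AT1G28290.1 held 2520 and 1054 of these counts and AT1G28290.2 held 9 and 3. Its gene is on chromosome 1 (minus strand, 9889101 to 9891015), where RefSeq has a form with 2 exons and one with 3. In the authors' deposited table AT1G28290.1 had a log2 ratio of -1.21 at an FDR of 2.87e-123.

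AGP30, of the same chimeric type and known from roots, went the other way. It had 170 counts in Col and 323 in OE, or an RPKM of 22.8 and 44.9. The count ratio was 1.97 (1.63 to 2.38), and the log2 ratio 0.94, or 0.75 adjusted. The gene has 2 exons on chromosome 2 (minus strand, 14293561 to 14295353). The chimeric AGPs thus differed in direction by more than counting error. The antisense locus AT2G35859 had 10 and 8 counts and was not expressed by the threshold.

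AGP30 and AGP14 are known from roots, and root markers were measured beside them. Of 6 root markers, 5 had counting intervals above 1: CASP1, of the Casparian strip, had 534 counts in Col and 927 in OE, TIP2;3 had 49 and 130, WOX5 16 and 40, EXPA7 104 and 162, and EXPA18 126 and 160. Their adjusted log2 ratios lay between 0.12 and 1.17. PYK10, the most abundant root marker, was lower, with 130637 and 105042 counts, a ratio of 0.832 (0.825 to 0.839). The summed RPKM of the root list was 10377 in Col and 8754 in OE, nearly all of it PYK10, and that of 6 shoot markers was 4419 and 3959. Of the 6 shoot markers, 1 had a counting interval above 1 and 4 below. PSAG, LHCB1.1 and LHCB2.1 had ratios of 0.788, 0.821 and 0.906, and RBCS1A 1.2. LHCB1.2 had a ratio of 0.931 (0.897 to 0.967) and RCA one of 1.02 (0.933 to 1.11). None of the 12 markers was at 0 in either library. The part of root content in the AGP values was not tested.

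FLAs were mostly lower in the overexpression library. Of 20 FLA loci, 17 were expressed, of which 10 had counting intervals below 1, 1 had one above and 6 included 1. Of all expressed genes, 15.6% were below and 18.7% above, and where the mean RPKM reached 100 these shares were 21.0% and 59.9%. The FLAs had a median mean RPKM of 43.2. Only FLA2, FLA8, FLA9, FLA13 and FLA15 reached 100, FLA9 with an interval above 1 and the others below. The median log2 ratio was -0.38, and -0.38 adjusted for length and GC content, with 13 of 17 below 0 after adjustment. On the log2 scale of RPKM + 1 none was 2-fold apart, while by count FLA6 had a ratio of 2.33 with an interval that included 1. FLAs are commonly sorted by sequence into groups A to D, and the values are given in that order.

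Group A, with a single fasciclin domain, had 6 loci, all expressed, and went both ways. FLA9 had an RPKM of 373 in Col and 507 in OE (2726 and 3580 counts), a ratio of 1.36 (1.29 to 1.43). FLA13 had an RPKM of 511 and 359.8 (3297 and 2244 counts), a ratio of 0.704 (0.667 to 0.743). These genes, both among the most abundant of the family, were thus apart in opposite directions, with adjusted log2 ratios of 0.21 and -0.73. FLA9 (chromosome 1, minus strand, 982381 to 983544) and FLA13 (chromosome 5, plus strand, 17760865 to 17762089) have 1 exon each. Neither transcript shares a stretch of 50 bases with a transcript of another gene. FLA7 had 285 and 283 counts, and its interval, 0.868 to 1.22, included 1. FLA6 had 8 and 18 counts, a ratio of 2.33 (0.963 to 6.19).

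FLA11 and FLA12, also of group A, are known from secondary walls of xylem and fibres. FLA12 had 204 counts in Col and 133 in OE, a ratio of 0.674 (0.538 to 0.843), and a log2 ratio of -0.55, or -0.79 adjusted. FLA11 had 528 and 441 counts, a ratio of 0.864 (0.760 to 0.982), and a log2 ratio of -0.21, or -0.43 adjusted. Of 9 xylem and secondary wall markers, all expressed, 5 had counting intervals below 1 and none above, against 15.6% and 18.7% of all expressed genes. The median log2 ratio of these markers was -0.31, or -0.14 adjusted, with 8 below 0 after adjustment and 1 above. CESA4, CESA7 and CESA8, subunits of the secondary wall cellulose synthase, had ratios of 0.595, 0.751 and 0.627, with adjusted log2 ratios of -0.45, -0.06 and -0.34. The laccases LAC4 and LAC17 had ratios of 0.805 and 0.750, with adjusted log2 ratios of -0.14 and -0.27. The xylem peptidases XCP1 and XCP2 (152 and 152 counts, and 952 and 929), IRX9 and VND7 had intervals that included 1. The summed RPKM of the list was 284 in Col and 248 in OE. The part of xylem content in the FLA11 and FLA12 values was not tested.

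Group B, with paired fasciclin domains, had 4 loci, all with counting intervals below 1. Such intervals were found for 15.6% of all expressed genes, and for 21.0% where the mean RPKM reached 100. FLA15, the most abundant, had an RPKM of 122 in Col and 90.6 in OE (1385 and 991 counts), a ratio of 0.740 (0.682 to 0.804). FLA16 had 613 and 436 counts, a ratio of 0.736 (0.649 to 0.833), and FLA17 had 1032 and 721, a ratio of 0.723 (0.656 to 0.796). FLA18 was the lowest FLA before adjustment, with 832 and 495 counts, an RPKM of 59.8 and 36.8 and a ratio of 0.615 (0.550 to 0.689). The log2 ratios of the group lay between -0.69 and -0.43, and between -0.61 and -0.37 adjusted, so that all 4 were lower on both scales. Of the FLA16 transcript, 76.0% of the 50-base words are also found in the antisense AT2G35859, so that reads of FLA16 and AT2G35859 cannot be told apart without strand.

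Group C included the most abundant FLAs. FLA2 had an RPKM of 523 in Col and 451 in OE (5513 and 4598 counts), a ratio of 0.863 (0.829 to 0.897). FLA8 had an RPKM of 542 and 415 (6017 and 4453 counts), a ratio of 0.766 (0.736 to 0.796). FLA10, the only transcript that shares 50-base words with FLA8 (0.223% of those of FLA8), had 332 and 333 counts, and its interval, 0.889 to 1.21, included 1. The adjusted log2 ratios of FLA2, FLA8 and FLA10 were -0.16, -0.31 and 0.13. FLA1, known from shoot regeneration and lateral roots, had 21 and 13 counts with an interval of 0.295 to 1.34, and FLA5 had 1 and 0.

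Group D held FLA4 and FLA19. FLA4, also named SOS5, is known for root cell expansion under salt and acts with the receptor kinases FEI1 and FEI2. It had 396 counts in Col and 278 in OE, an RPKM of 39.5 and 28.7, and a ratio of 0.726 (0.621 to 0.849). Its log2 ratio was -0.45, or -0.52 adjusted. FEI2 had 36 and 16 counts, a ratio of 0.460 (0.238 to 0.850), while FEI1 had 13 and 13. FLA19 had 18 and 12 counts and an interval that included 1. Of the unnumbered loci, AT3G55820 had 21 and 32 counts with an interval of 0.881 to 2.88, AT5G26730 had 4 and 7, and AT5G16920 had 0 and 2. The pollen genes FLA3 and FLA14 were not analysed here.

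The genes that hydroxylate, glycosylate and anchor these proteins were listed with FEI1 and FEI2. Of the 32 genes of that list, 30 had a row and 20 were expressed, of which 4 had counting intervals above 1, 1 had one below and 15 included 1, against 18.7% above and 15.6% below of all expressed genes. Their median log2 ratio was -0.06, or -0.03 adjusted. On the log2 scale of RPKM + 1 none was 2-fold apart, while FEI2 was more than 2-fold lower by count. The prolyl hydroxylases P4H2 and P4H5 had ratios of 1.14 (1.02 to 1.28) and 1.16 (1.01 to 1.33), and P4H1 one of 1.02 (0.859 to 1.22). GALT5 and HPGT2, which add the first galactose to hydroxyproline, had ratios of 0.961 (0.768 to 1.2) and 0.929 (0.768 to 1.12). GLCAT14A, a glucuronosyltransferase of the sugar chains, had a ratio of 1.16 (1.02 to 1.33). AGM1, which methylates glucuronic acid on AGPs, had 1056 counts in Col and 1306 in OE, a ratio of 1.28 (1.18 to 1.39) and an adjusted log2 ratio of 0.32. The galactosyltransferase GALT4 and GLCAT14C had ratios of 1.37 (0.876 to 2.16) and 1.21 (0.911 to 1.61). The only interval below 1 in the list was that of FEI2.

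**Figure D3:**
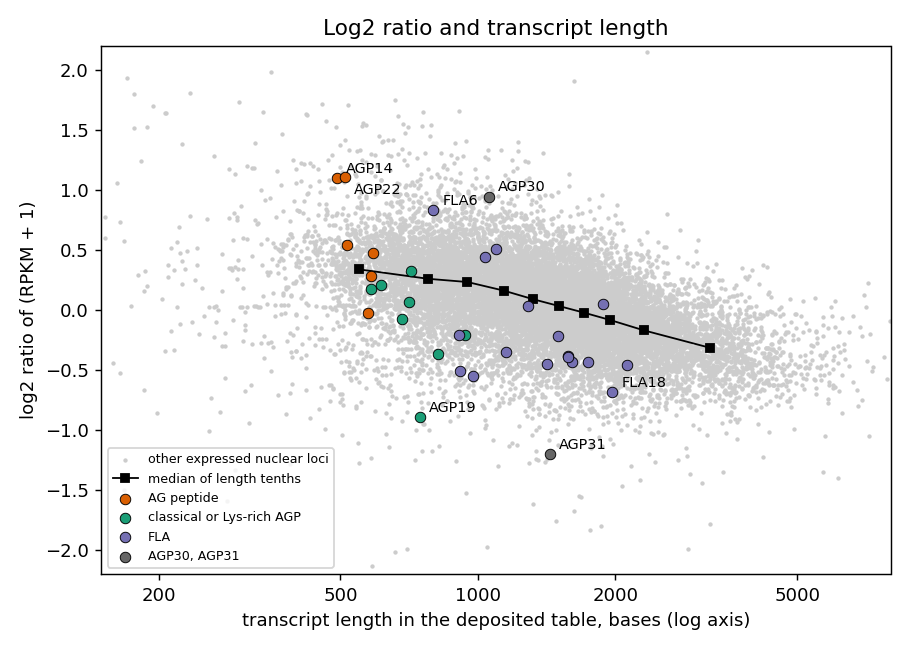
Log2 ratio of RPKM + 1 against transcript length (log axis) for expressed nuclear loci (grey), with the medians of 10 equal groups by length (squares) and the 33 expressed members coloured by class. A few loci beyond the axes are not drawn. AG peptides sit at the short end on both sides of the line of medians, with AGP14 and AGP22 well above it, and most FLAs lie below it.

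Length, base content and class went together within the family, so their parts cannot be told apart. Genes are no replicates of each other, so correlations describe them only. Across the 33 expressed members, Spearman's rho of the log2 ratio was -0.60 with transcript length and -0.42 with the C share of the transcript. Across all expressed nuclear genes it was -0.52 and -0.04. After adjustment for length and GC content, rho with length was still -0.37 across the 33 members. Within the 17 expressed FLAs it was -0.38 before and -0.02 after that adjustment. AG peptide transcripts had a median C share of 20.2%, FLA transcripts 24.3% and classical AGP transcripts 26.7%, against 19.6% for all expressed genes.

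Other genes rich in Pro, Ala, Ser and Thr codons gave a reference for the coding sequences shown above. The members were left out of it, and so were the further annotated family loci outside the definition, such as AGP4 and AGP7. Of 109 other expressed loci with over 40% such codons, 72 had negative log2 ratios after adjustment for length and GC content. The median of the 109 was -0.18, and 49.9% of all expressed genes were negative. Before adjustment, 21 of the 109 were at least 2-fold lower, against 0.663% of all expressed genes. Of the 12 expressed members over 40%, 9 were negative after adjustment, with a median of -0.26, and 1 was 2-fold lower before it. The adjusted ratios of the other loci ranged from -2.18 to 0.85, wide enough to hold all 33 expressed members, at -1.18 to 0.75. That AGP31 and AGP19, at -1.18 and -1.06, fell within it therefore says nothing particular about them. AGP9, with the highest share, was at -0.39 and AGP1 at 0.02. The part of base composition in these values was not tested beyond the adjustments given.

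**Figure D4:**
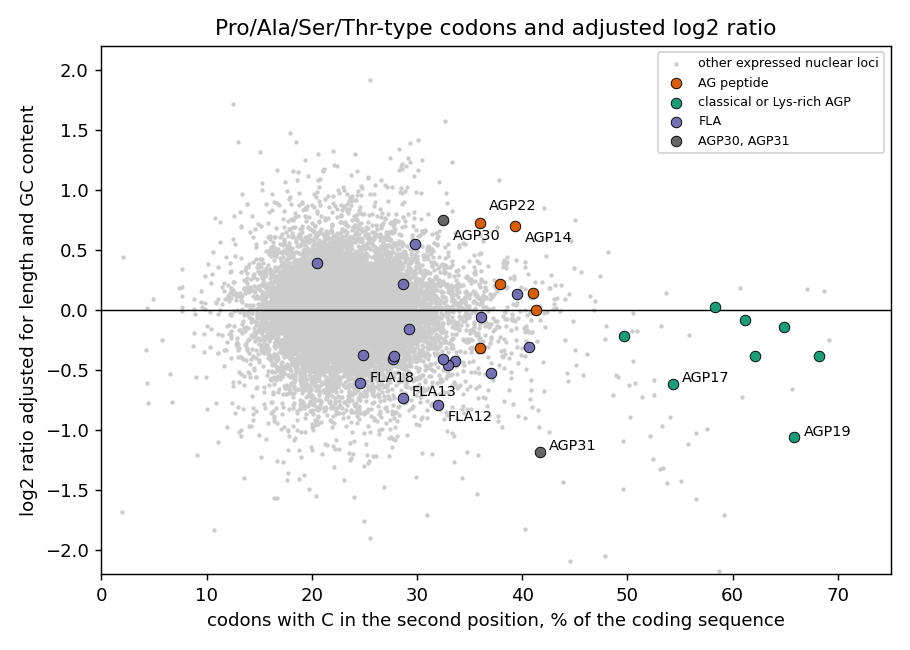
Log2 ratio adjusted for transcript length and GC content against the percentage of codons with C in the second position, for other expressed nuclear loci (grey) and the 33 expressed members coloured by class. A few loci beyond the axes are not drawn. Classical AGPs lie at the far right, apart from most genes, with all but AGP1 below 0, while AGP14, AGP22 and AGP30 lie above and AGP31 and AGP19 lowest.

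Auxin response factors bind TGTC-type elements in promoters. The motif TGTCTC, searched on both strands from 250 bases before to 50 after the gene start, was found at 4 of 38 members (10.5%) and at 14.2% of 27444 coding genes. The motif TGTCGG, which shares the letters TGTC with it, was found at 5 members (13.2%) and at 5.12% of coding genes. The members with TGTCTC were AGP22, AGP26, FLA1 and FLA11, and those with TGTCGG were AGP26, FLA10, FLA13, FLA15 and FLA17. A match is a description of the letters only. Of the members at least 2-fold apart, AGP22 had a match, and AGP14 and AGP31 had none in this window.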

How the data were processed

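RNA of 1 wild-type and 1 ARF18 overexpression seedling library was sequenced. Per the labels' protocols, cDNA was made with random primers from Trizol-extracted RNA. Per the submitters' processing notes the build was TAIR 10. The sources used here name no aligner, counting program or strandedness. For each transcript model the authors deposited raw counts and RPKM, in which a count of 0 is written as 0.01 and was set to 0 here. The deposited RPKM differed from values recomputed from counts and length by at most 3.23e-06 percent. The authors' log2 ratio and their p-value and FDR columns were deposited from a test of the 2 libraries that is not named.

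Matching models were summed per locus. Log2 ratios used a pseudocount of 1 RPKM, and loci with a mean RPKM of 1 or more were described. For the adjustment, expressed loci were binned by deposited length and then by GC content (known for 15069), 50 bins each, and the bin's median was subtracted. GC content and C share were those of the longest RefSeq transcript, which can be longer than the deposited one. Ratios of single loci use counts scaled to the library totals. Symbols, coordinates and sequences came from RefSeq TAIR10.1. The family, the gene lists and the settings were chosen with earlier results of these data known. Every member is named; of the lists, those with the largest ratios and others for context, the latter chosen after their values were seen. As no protein table was given, codon composition stands in for the planned protein features. FLA groups were assigned from general knowledge of the family. No count model was run, as there are no replicates. Calculations were tested on simulated data and used Python, numpy, pandas, scipy and matplotlib (versions 3.11.15, 2.4.6, 2.3.3, 1.17.1 and 3.10.9).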

Additional observations from a re-analysis of the deposited data

How the results depend on the processing

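No paired analysis was possible because there was only 1 library on each side. With pseudocounts of 0.1 and 5 RPKM, median-centred and TMM scaling, library-scaled counts (CPM), all rows of a locus, no filter, a mean RPKM of 5 or more, members also named in the reference annotation, or the authors' deposited calls, 2 members were 2-fold higher and 1 lower, except that FLA6 made 3 higher at 0.1 RPKM. No member changed sign under these scalings. Adjusted for length and GC content, 0 members were higher and 2 lower (AGP19 and AGP31). AGP5, AGP10, AGP26 and FLA7 changed sign, all with log2 ratios between 0.04 and 0.21. Adjusted for length and C share, chosen after seeing the data, 0 were higher and 1 lower, and AGP20, AGP26, FLA2 and FLA7 changed sign. At 1.5-fold there were 4 and 3, and by counting intervals that exclude 1, 9 and 12. Among loci with a single transcript model 0 were lower, because AGP31 has 2. The median log2 ratio lay between -0.31 and -0.05 in the alternatives, but was 0.04 with the annotated family loci outside the definition, added after seeing the data, which also made AGP13 the 3rd higher gene. Depth limits AGP17, AGP41, FLA1, FLA6, FLA19 and AT3G55820, whose few counts gave wide intervals that include 1.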
